A study of Mus musculus with 6 samples.

Results

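Transcript levels of 10 transcription factor genes that specify and maintain the heart muscle lineage, Gata4, Gata6, Nkx2-5, Tbx5, Tbx20, Hand2, Mef2a, Mef2c, Mef2d and Srf, were compared between wild-type (WT) mouse hearts and hearts null for estrogen-related receptor alpha (ERRα). The genes were chosen by name, and each was read from its brightest probe set by mean signal over the 6 arrays. A probe set is a group of short array probes read together as 1 signal. All 10 genes were among the 12946 tested. They have 30 probe sets, of which 29 passed the filter on dim signals; the exception is a Hand2 probe set that was not the one read. The series holds 3 hearts labelled WT and 3 labelled KO, each on its own Affymetrix array, from male mice kept under basal conditions. Per the labels 5 of the mice were C57BL/6J, aged 2 to 3 months, while the labels of WT 1 give neither strain nor age. The labels name no chamber, and neither they nor the design text describe the deleted allele. ERRα, encoded by Esrra, is an orphan nuclear receptor that controls genes of mitochondrial energy metabolism.

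GATA4 and GATA6 are zinc finger proteins, NKX2-5 is a homeodomain protein, TBX5 and TBX20 carry the T-box, HAND2 is a basic helix-loop-helix protein, and the MEF2 proteins and SRF carry the MADS box. In the embryo they form a network in which members bind each other and many of the same enhancers, and they switch on genes of the sarcomere, the natriuretic peptides and ion handling. In the adult heart they stay expressed and keep up that program, and their activity is set largely by partner proteins and by phosphorylation as well as by transcript level. TBX5 is richer in atria than in ventricles, where it is strongest on the left side during development.

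Array brightness differed. The median signal per array was 16 in WT 1 and between 12.4 and 13.7 in the other 5, and WT 1 was the highest WT heart for 100% of the 10 factors, against 76.2% of all genes tested. Esrra, the targeted gene, checks the labels. WT signals were 368.1, 394.4 and 349.1, whereas the libraries labelled KO 1 to 3 gave 180.1, 24 and 18. The library labelled KO 1 thus held 48.6% of the WT mean, against 6.48% and 4.86% in the others, which goes against its label. Every direction given for the libraries labelled KO includes it unless its omission is stated. For WT 1 the array header carries a comment with a mouse number that differs from the title, and the title was followed. The tissue label was borne out by cardiomyocyte markers such as Myh6, Tnnt2 and Ryr2, all 10 of which gave signals of 1274.8 or more in every heart. The labels do not say how hearts were housed or collected together. The p-values thus speak only for these 6 samples, and their number limits the precision. In the main fit each p-value rests mostly on a variance shared between genes of like intensity (43.4 prior degrees of freedom). The spread of a gene's own 6 values counts for less.

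None of the 10 lineage factors was called different between the genotypes. With limma run on log2(signal + 16), two-sided, and Benjamini-Hochberg adjustment over every gene tested, at a threshold of 0.05, 0 of 10 passed, where 2.90% of all genes tested did. The adjusted p of the factors ran from 0.262 for Tbx20 to 0.973 for Hand2. At an unadjusted p under 0.05 there was 1 of 10, Tbx20, against 12.5% of all genes. The factors had a median log2 difference of 0.014, beside -0.028 for all genes, and a median absolute difference of 0.14, beside 0.15. Of the 10, 5 had positive and 5 negative differences. The hearts of the groups did not overlap for 1 factor, Tbx20, against 16.2% of all genes. Calls in the higher direction made up 1.77% and in the lower direction 1.13% of all genes, and groups without overlap 6.80% and 9.44%. With quantile normalization 3.44% of all genes were called, and without the library labelled KO 1 3.99%, again with 0 of the 10 factors in either fit. The counts for the factors are read against these shares and do not stand out from them.

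A missed threshold does not show that levels were alike, so the 95% interval of each difference was read as a bound. For 10 of 10 factors the interval lay within a 2-fold change in either direction, and for 7 within a 1.5-fold change. The 3 others were Gata4, whose interval reached down to 0.639 of the WT level, Tbx20, whose interval reached up to 1.64 times, and Srf, whose interval reached up to 1.51 times. These intervals draw most of their width from a variance shared between genes of like intensity (43.4 prior degrees of freedom) and are not adjusted for the number of genes. They are on the log2 scale with 16 added to the signal, which understates the change of dim genes most. The bounds hold for the probe sets read and include the library labelled KO 1. With all probe sets fitted unfiltered, the interval of 1 dimmer Mef2c probe set reached -0.64, past a 1.5-fold change. That of the second Tbx20 probe set reached 0.95. Without KO 1, Mef2d was at -0.28 (SE 0.199) and Hand2 at -0.25 (SE 0.206), further from 0, and Gata4 at -0.22 (SE 0.202), nearer to it.

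**Figure D1:**
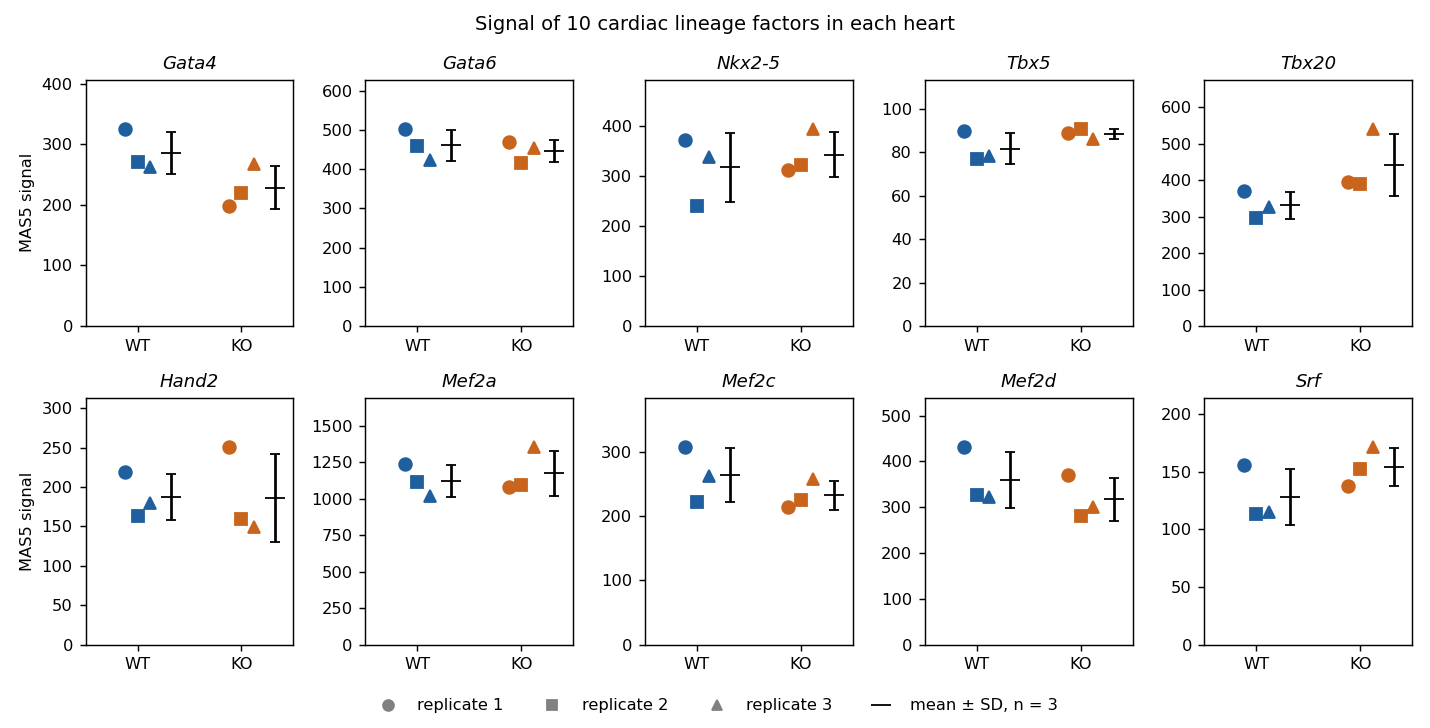
MAS5 signal (vertical axes, linear, from 0) of each of the 10 factors in WT and KO hearts; each symbol is 1 heart, and bars give the mean ± SD of 3. Only for Tbx20 do all 3 KO hearts, 390.1 to 540.6, lie above all 3 WT hearts, 296.9 to 370.4; for the other 9 genes the groups overlap.

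Promoter sequence was read for the factors found in a RefSeq promoter table (build GRCm38.p6), as the 250 bases before a transcript start. Windows were found for 7 of the genes, 9 windows in all because Mef2c has 3. Gata6 was not included. Binding motifs of the factors and of ERRα were searched on both strands. The windows of Srf, Tbx20 and 1 Mef2c transcript are printed because Srf and Mef2c hold a motif of SRF or ERRα and Tbx20 had the largest difference of the 10; matches are in capitals, apart from the E-box.
Srf, chr17:46556163-46556412, minus strand: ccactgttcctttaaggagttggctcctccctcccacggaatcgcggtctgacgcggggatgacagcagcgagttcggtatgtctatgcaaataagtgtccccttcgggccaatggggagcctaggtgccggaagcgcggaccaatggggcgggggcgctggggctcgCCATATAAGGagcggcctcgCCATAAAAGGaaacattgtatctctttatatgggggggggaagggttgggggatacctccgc
Tbx20, chr9:24774304-24774553, minus strand: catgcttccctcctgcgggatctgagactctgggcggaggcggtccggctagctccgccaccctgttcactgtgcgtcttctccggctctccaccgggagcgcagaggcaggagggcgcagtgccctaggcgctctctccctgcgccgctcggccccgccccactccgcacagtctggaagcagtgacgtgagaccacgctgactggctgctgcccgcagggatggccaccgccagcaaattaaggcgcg
Mef2c, chr13:83573357-83573606, plus strand: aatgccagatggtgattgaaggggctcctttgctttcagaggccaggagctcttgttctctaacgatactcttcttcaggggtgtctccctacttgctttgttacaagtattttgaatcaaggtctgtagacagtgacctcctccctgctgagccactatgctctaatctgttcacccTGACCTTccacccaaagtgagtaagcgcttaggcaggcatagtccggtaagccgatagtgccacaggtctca
The capitals in the Srf window are 2 CArG boxes, the site bound by SRF itself, and 1.47% of all 32851 windows in the table hold at least 1. The capitals in the Mef2c window are the core letters of the ERRα site, AAGGTCA, on the opposite strand, which was found in 1 of the 9 windows and in 4.08% of all windows. In the Tbx20 window none of these motifs was found. The GATA motif AGATAA occurred in the Hand2 window (9.99% of all windows), and the E-box CANNTG in 4 windows of Hand2, Mef2c and Nkx2-5 (66.2%). The T-box motif GGTGTGA (3.33%), the NK element TNAAGTG (10.1%) and the MEF2 box (0.508%) were in 0 of the 9. A match describes letters only, and a window without one says nothing about the factor.

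Gata4, which drives natriuretic peptide and contractile genes and is needed for the hypertrophic response, had the largest negative difference of the 10 factors. Its signal was 325.5, 271.2 and 261.9 across WT 1 to 3, against 197.6, 220.2 and 267 across libraries labelled KO 1 to 3. KO 3 lay above WT 3, so the groups overlapped. The means were 286 ± 34.3 and 228 ± 35.4 (SD, n = 3), which put KO at -0.31 on the log2 scale (SE 0.166, limma adjusted p = 0.461). With quantile normalization, which puts the arrays on 1 distribution, all 3 libraries labelled KO lay below all 3 WT hearts, at 201.1 to 258.7 against 276.3 to 291.4, and the adjusted p was 0.162. With that scaling 23.8% of all genes had groups that did not overlap, and Gata4, Tbx20 and Srf were the 3 of 10 factors that did. The dimmer Gata4 probe set had a log2 difference of -0.063. Gata6, its close relative, which is shared by myocytes, smooth muscle and other cells of the heart, gave 502.4, 458.7 and 423.4 across WT 1 to 3, against 468.5, 416.4 and 454 across libraries labelled KO 1 to 3. Its hearts were interleaved and the log2 difference was -0.045 (interval -0.35 to 0.26).

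Nkx2-5, the homeobox gene that marks cardiac progenitors and maintains the conduction system, gave 373.5, 241.4 and 338.1 across WT 1 to 3, against 312.2, 322.2 and 394.8 across libraries labelled KO 1 to 3. The WT hearts alone spanned more than the difference between the means, which was 0.12 on the log2 scale (SE 0.168, interval -0.22 to 0.46). It has a single probe set.

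Tbx5, the gene of Holt-Oram syndrome and the atrial-rich member of the set, had the narrowest range of the 10, its highest heart being 1.18 times its lowest. It gave 89.7, 76.6 and 78.2 across WT 1 to 3, against 88.6, 90.6 and 86 across libraries labelled KO 1 to 3. WT 1 lay within the range of the KO libraries. The log2 difference was 0.10 (SE 0.169, interval -0.24 to 0.44, limma adjusted p = 0.885), and the second probe set, at 50.3 to 111.3 over the 6 hearts, had a difference of -0.056.

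This stood beside large rises of most other atrial markers. Of 13 atrial markers tested 10 were called higher in the libraries labelled KO, against 1.77% of all genes, and the 3 not called were Tbx5, Nr2f2 and Kcnj3. Without WT 1, 6 of the 10 still passed, and Nppa, Myl7, Myl4 and Mybphl did not. With no filter 7 of the 10 passed, and with robust eBayes, another variance model, 5 did. The list was chosen with earlier results of these data known, and its rise is not independent evidence of a direction. Sln, which encodes the atrial calcium pump regulator sarcolipin, gave 317.9, 233.1 and 924.1 across WT 1 to 3, against 2455.2, 2215.1 and 1594.4 across libraries labelled KO 1 to 3. Averaged over 5 atrial markers (Bmp10, Mybphl, Myl4, Myl7 and Sln), log2 levels relative to the WT mean were -0.31, -0.64 and 0.95 across WT 1 to 3, against 2.11, 1.85 and 1.53 across libraries labelled KO 1 to 3. WT 3 was the highest of the WT hearts on these markers. From the deposited signals Tbx5 in WT 3 was at -0.047 relative to the WT mean, which includes the brighter array WT 1. In KO 1 to 3 Tbx5 was at 0.10, 0.13 and 0.068 on the same scale. The place of WT 3 depended on scaling. With quantile normalization Tbx5 gave 76.82, 82.9 and 84.96 across WT 1 to 3, so WT 3 was its highest WT heart. Libraries labelled KO 1 to 3 then gave 89.8, 95.02 and 82.32, and the groups still overlapped. Nr2f2, a nuclear receptor that sets atrial identity, had a log2 difference of 0.018 and a signal of 55.5 to 71.2 over the 6 hearts. The part of atrial tissue in any value of the lineage factors was not tested beyond 1 fit with the mean of those 5 markers as a covariate. In that fit Tbx5 was at 0.13 with an SE of 0.384, more than double the SE without the covariate. In bulk tissue, more cells of a type and more RNA per cell cannot be told apart.

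Among ventricular markers the homeobox gene Irx4, which represses atrial genes in ventricular myocytes, fell. It gave 106.1, 77 and 74.9 across WT 1 to 3, against 42.2, 49 and 54 across libraries labelled KO 1 to 3 (-0.65 on the log2 scale, SE 0.176, limma adjusted p = 0.0243). All 3 libraries labelled KO lay below all WT hearts, but the call was lost without KO 1 (0.0911), without WT 1 (0.136) and without KO 2 (0.0731). Of 9 ventricular markers 3 fell (Irx4, Lbh and Hrc), where 1.13% of all genes were called lower. A further 1 rose (Myh7), where 1.77% were called higher, and 5 were not called. Without WT 1 none of these 4 calls passed (limma adjusted p from 0.058 for Lbh to 0.231 for Myh7), and without KO 3 or with quantile normalization 2 did, Irx4 and Lbh.

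**Figure D2:**
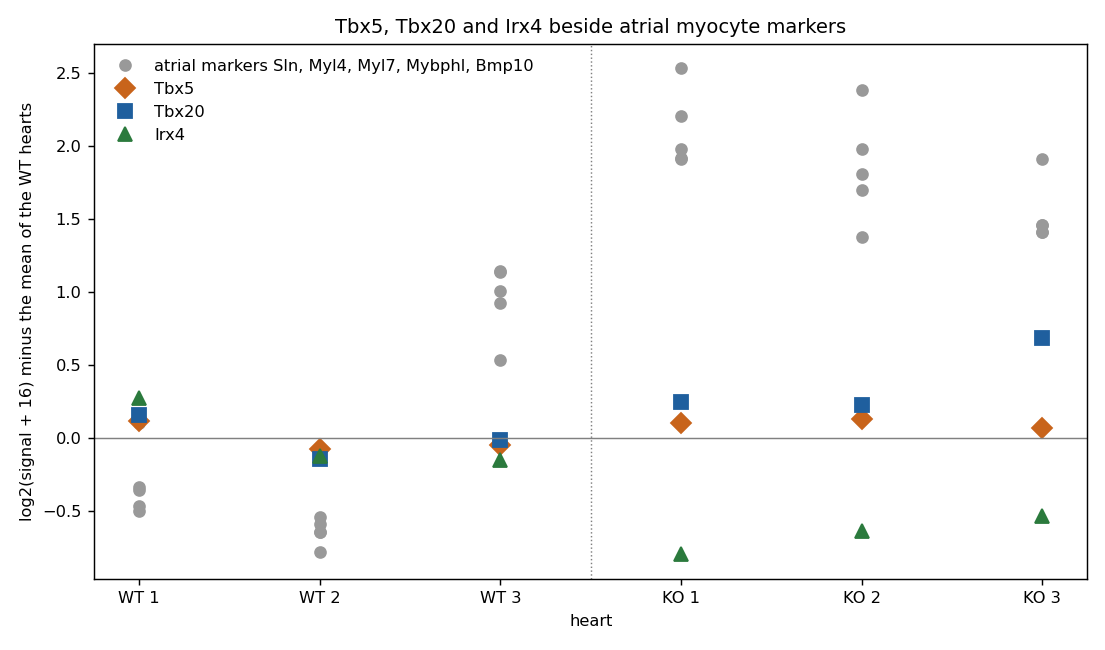
Log2 of signal plus 16 in each heart minus the mean of the 3 WT hearts (vertical axis), for Tbx5, Tbx20, Irx4 and 5 atrial myocyte markers in the 6 hearts (horizontal axis). Tbx5 stays between -0.072 and 0.13 in all hearts, while Sln reaches 2.53 in KO 1 and Irx4 lies at -0.53 or below in every library labelled KO.

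Tbx20, a T-box factor needed for adult cardiomyocyte function and also expressed in valve and other non-myocyte cells, had the largest difference of the 10. Its signal was 370.4, 296.9 and 327.3 across WT 1 to 3, against 394.8, 390.1 and 540.6 across libraries labelled KO 1 to 3. All 3 libraries labelled KO lay above all WT hearts, with KO 3 well above the others. The means were 332 ± 36.9 and 442 ± 85.6 (SD, n = 3), a log2 difference of 0.39 (SE 0.163, interval 0.060 to 0.71), with an unadjusted p of 0.0213 and a limma adjusted p of 0.262. The second probe set gave 155.5, 109.4 and 95.2 across WT 1 to 3, against 178.6, 155.6 and 212.9 across libraries labelled KO 1 to 3, also without overlap, though KO 2 and WT 1 were almost equal. Its log2 difference was 0.56 (SE 0.178, limma adjusted p = 0.370 in the unfiltered fit of all probe sets). The third, dimmest probe set, at 2.4 to 22.2, had a difference of -0.21. Without KO 3 the difference was 0.24, and without KO 1 it was 0.46 (limma adjusted p = 0.235). The smallest adjusted p of Tbx20 over 20 alternative settings was 0.0586, with cyclic loess, so it passed in none of them.

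KO 3 was also the highest heart for the summed signal of fibroblast markers. The same held for the endothelial, smooth muscle, leukocyte and adipocyte marker lists, so it was not particular to fibroblasts. Of all genes tested, 42.6% had KO 3 as the highest of the libraries labelled KO alone. That is a wider condition than the highest of all 6 hearts, for which no share was counted. The summed signal of 10 fibroblast markers was 5948.8 to 7200.5 in WT and 7906.2 to 9582.6 in the libraries labelled KO, without overlap. Of the 10, 1 was called higher, Col3a1, against 1.77% of all genes. With quantile normalization 4 of the 10 were called higher (Col3a1, Col1a2, Dcn and Lum), while the call of Col3a1 was lost on leaving out WT 1, WT 2, WT 3 or KO 3. None of these marker signals was 0. The part of non-myocyte cells in the Tbx20 values was not tested.

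Hand2, a basic helix-loop-helix factor of the right ventricle and of fibroblasts and sympathetic nerves, varied most within groups. It gave 219, 162.6 and 180.3 across WT 1 to 3, against 250.2, 158.9 and 149.8 across libraries labelled KO 1 to 3. KO 1 was the highest and KO 3 the lowest of all 6 hearts. The log2 difference was -0.031 (SE 0.179, limma adjusted p = 0.973), and without the library labelled KO 1 it was -0.25 (adjusted p = 0.719).

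The MEF2 genes, whose products bind A/T-rich sites in muscle genes and respond to calcium and stress kinases, gave 3 genes of which none was called. Mef2a, the main MEF2 gene of the adult heart, gave 1240.3, 1116.1 and 1021 across WT 1 to 3, against 1079.6, 1095.5 and 1352.6 across libraries labelled KO 1 to 3, a log2 difference of 0.059 (interval -0.22 to 0.34). KO 3 was the highest and WT 3 the lowest of the 6. Mef2c gave 306.4, 222.1 and 262.5 across WT 1 to 3, against 214.4, 225.2 and 257.4 across libraries labelled KO 1 to 3, with a log2 difference of -0.16 (interval -0.50 to 0.17). Only KO 1 lay below every WT heart. Mef2d, whose product carries stress signals in the adult heart, gave 430.2, 327.5 and 321.7 across WT 1 to 3, against 370.7, 280.9 and 300.7 across libraries labelled KO 1 to 3. Its log2 difference was -0.17 (interval -0.50 to 0.16), with KO 1 above WT 2 and WT 3, and KO 2 and KO 3 below every WT heart. Without the library labelled KO 1 the Mef2d difference was -0.28 (SE 0.199, limma adjusted p = 0.637).

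Srf, the MADS box factor of cytoskeletal and immediate early genes, gave 156.1, 113.7 and 114.9 across WT 1 to 3, against 137.9, 152.6 and 171 across libraries labelled KO 1 to 3. WT 1 lay among the KO libraries, and the other WT hearts lay below all of them. The log2 difference was 0.24 (SE 0.172, interval -0.10 to 0.59, limma adjusted p = 0.64). The probe set read is 1 whose suffix marks probes shared between transcripts. The other Srf probe set, without that suffix, had a difference of 0.11. With quantile normalization the groups of the brighter probe set did not overlap, at 123.5 to 133.8 in WT and 139.3 to 164.8 in KO, with an adjusted p of 0.217. Its window with 2 CArG boxes, printed above, is that of a gene whose own level was not called.

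**Figure D3:**
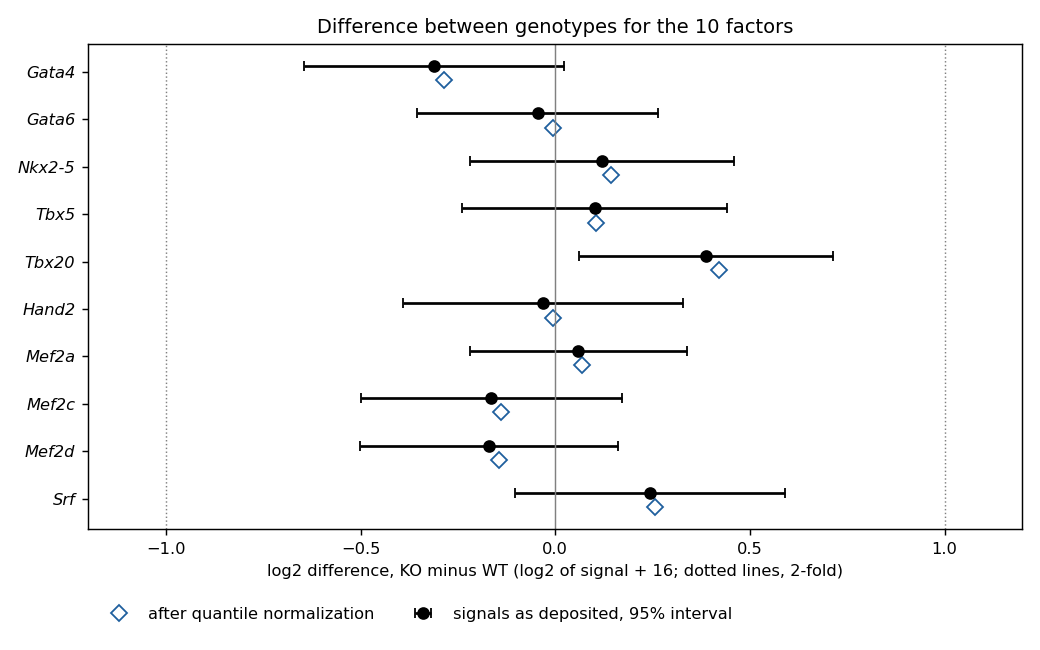
Log2 difference, KO minus WT, of each factor (horizontal axis) with its 95% interval from the deposited signals (filled circles) and its value after quantile normalization (open diamonds). Of the 10 intervals 9 span 0, the exception being Tbx20 at 0.060 to 0.71, and all lie within the dotted lines at a 2-fold change.

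Reading every probe set gave no call either. Of all 45037 non-control probe sets, fitted unfiltered, 0.102% were called, and 0 of the 30 probe sets of the factors were. In this fit the brighter probe set of Esrra, the targeted gene, did not pass either (-2.58, limma adjusted p = 0.0678). The lack of a call there thus adds little. Differences of the 30 probe sets ran from -0.33 to 0.56, with 13 positive, and 3 had an unadjusted p under 0.05. The groups did not overlap for 5 of the 30, or 16.7%, against 12.6% of all probe sets. These were the 2 brighter Tbx20 probe sets and a dim Gata6 probe set, which were higher in the libraries labelled KO, and 2 Mef2c probe sets, which were lower. The Mef2c probe sets gave 148.2, 129.5 and 156.5 across WT 1 to 3, against 101.5, 115.4 and 117.4 across libraries labelled KO 1 to 3 (-0.33 on the log2 scale, SE 0.140, limma adjusted p = 0.563), and 172.4, 127.2 and 129.7 against 117.6, 111 and 116.4 (-0.27, SE 0.149, 0.717). The remaining 3 Mef2c probe sets overlapped, with differences from -0.16 to 0.070. Among the 9 genes with several probe sets, 7 had differences of both signs. The sources used here do not say which transcripts each probe set reads.

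**Figure D4:**
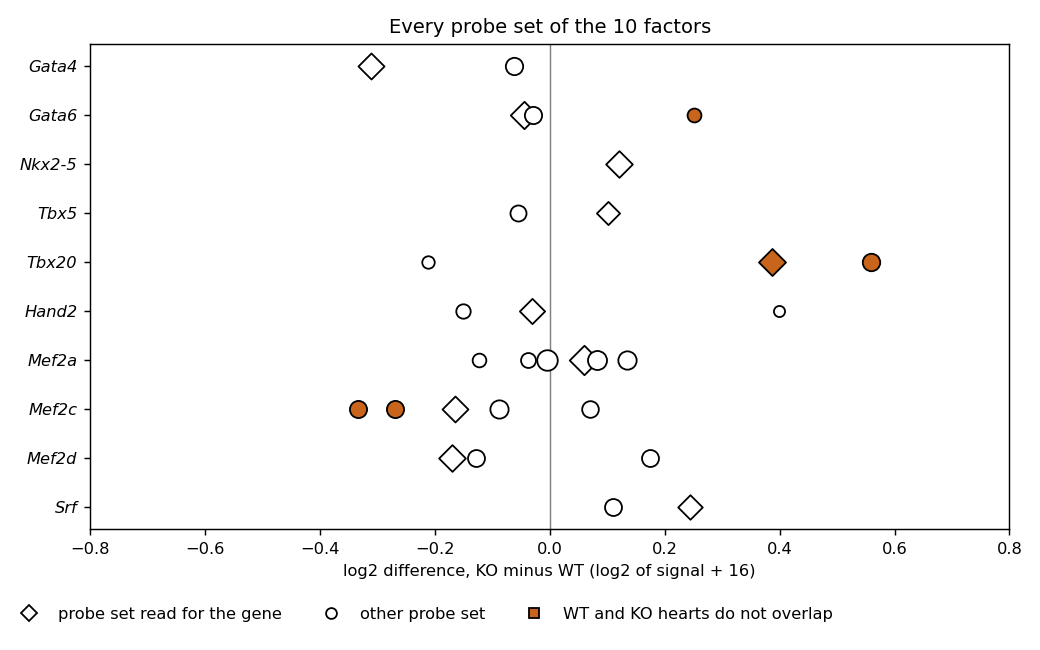
Log2 difference, KO minus WT (horizontal axis), of each of the 30 probe sets, by gene; larger symbols have a higher mean signal, diamonds mark the probe set read for the gene, and orange marks probe sets whose WT and KO hearts do not overlap. The orange symbols are 2 of Tbx20, 2 of Mef2c and 1 of Gata6, and their differences run from -0.33 to 0.56.

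Most partners and relatives of the factors were not called. Of all genes tested 2.90% were called, 1.77% higher and 1.13% lower. Of 34 other cardiac lineage and chamber factors tested, 1 rose, 1 fell and 32 were not called, with a median log2 difference of 0.016. Irx4 fell, as given above. Tbx1, a T-box gene of the embryonic outflow tract, rose from a dim 12.1, 3 and 6 in WT to 15, 40.5 and 26.5 in KO 1 to 3 (limma adjusted p = 0.0182), but did not pass with quantile normalization (0.066). Tbx2 (-0.59, SE 0.217) and the epicardial and fibroblast factor Tcf21 (0.39, SE 0.171) had the next smallest p and did not pass.

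Of 30 cofactors and repressors, 1 rose, 1 fell and 28 were not called, with a median of -0.061, where 2.90% of all genes were called. Jarid2, a chromatin protein that holds back GATA4 and NKX2-5 activity, fell. It gave 234.5, 180.1 and 188 across WT 1 to 3, against 103.6, 128.5 and 130.9 across libraries labelled KO 1 to 3 (-0.66 on the log2 scale, SE 0.171, limma adjusted p = 0.0181). The call was lost without KO 1 (0.112) and without WT 1 (0.0881), and without shared-probe sets, since its value comes from one. Ankrd1, a stress-responsive nuclear and sarcomeric protein, rose from 3977.8, 3955.2 and 4133.7 to 4541.9, 5477.7 and 6172.5 (log2 difference 0.41, limma adjusted p = 0.0216). The coactivator gene Crebbp gave 230.8, 207.3 and 195.6 across WT 1 to 3, against 274.4, 264 and 290 across libraries labelled KO 1 to 3. These groups did not overlap, but the difference of 0.36 did not pass (limma adjusted p = 0.313), although it did with quantile normalization (0.0385). The SRF coactivator gene Myocd was at -0.088 (SE 0.173), Mrtfa at 0.033 and Mrtfb at 0.039, and the GATA cofactor gene Zfpm2 at -0.069 (SE 0.168). Mapk7 (-0.68, SE 0.228) and Hdac9 (-0.48, SE 0.189), a kinase and a deacetylase that act on MEF2, had the next smallest p and did not pass.

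Well-known target genes of the factors included called genes in each list, where 2.90% of all genes were called, 1.77% higher and 1.13% lower. Of 21 tested targets of GATA4, NKX2-5 and TBX5, 5 rose, 0 fell and 16 were not called (median -0.032). Nppa, which encodes atrial natriuretic peptide, rose from 2951 ± 1890 to 7147 ± 267, and Nppb, the B-type peptide gene, from 1106 ± 225 to 1688 ± 139 (SD, n = 3). Myl7, Bmp10 and Myh7 rose by 1.71, 1.60 and 0.78 on the log2 scale. Nppa, Myl7 and Bmp10, 3 of the 5, also stand in the atrial marker list. The most abundant contractile targets were not called, with Myh6 at -0.040 (SE 0.091) and Actc1 at -0.086 (SE 0.092).

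Of 22 MEF2 targets, 1 rose, 2 fell and 19 were not called (median -0.11). Myot and Tcap, which encode Z-disc proteins, fell by 1.84 and by 0.61 on the log2 scale, and Ppargc1a, the gene of the coactivator PGC-1α, rose by 1.03. The creatine kinase gene Ckm was at -0.11 (SE 0.101) and Myl2 at -0.096 (SE 0.090). Of 24 SRF targets, 5 rose, 2 fell and 17 were not called (median 0.19). Ccn2, Acta2, Myl9, Cnn1 and the actin-severing protein gene Dstn rose. The Acta2 value comes from a shared-probe set. Without such sets Acta2 was at 0.25 (limma adjusted p = 0.744), and with its probe sets averaged at 0.56 (0.120). Ccn2 gave 235.8, 262.3 and 259.2 across WT 1 to 3, against 818.5, 725 and 615 across libraries labelled KO 1 to 3 (limma adjusted p = 5.62e-09). Acta1, skeletal α-actin, fell from 1631 ± 156 to 1004 ± 228 (SD, n = 3), and Ccn1 fell too. The immediate early SRF targets Fos (0.059, SE 0.236) and Egr1 (-0.49, SE 0.170) did not pass. Acta2 and Cnn1 are also smooth muscle markers, a list of which 2 of 10 tested members were called higher, against 1.77% of all genes. Both calls were lost without WT 1 and with quantile normalization.

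Of these 19 calls in the lists of partners and targets, 15 were lost when at least 1 single heart was left out, and 4 (Bmp10, Ppargc1a, Myl9 and Ccn2) passed without any 1 heart. Without WT 1, the brightest array, 5 of the 19 still passed (Bmp10, Ppargc1a, Myl9, Ccn2 and Dstn), and the other 14 had adjusted p from 0.0624 to 0.37. Without the library labelled KO 1, 16 passed, and Irx4, Jarid2 and Cnn1 did not. Without WT 2 the calls of Tbx1, Ankrd1, Nppb and Dstn were lost, without WT 3 those of Ankrd1, Myh7, Ccn1 and Dstn, without KO 2 those of Tbx1, Irx4, Ankrd1, Nppb, Ccn1 and Dstn, and without KO 3 those of Ankrd1, Myh7 and Dstn. With quantile normalization Tbx1, Myh7, Acta2, Cnn1 and Ccn1 did not pass (adjusted p from 0.0514 to 0.203). With no filter 4 of the 19 passed and with no intensity trend 9. With robust eBayes, another variance model, 16 passed, and Nppa, Myl7 and Myot did not. With the 5-marker atrial level as a covariate 3 of the 19 passed, in a fit whose SE was over double for the lineage factors. Myl7 and Bmp10 are part of that covariate, so the loss of their calls was built in. The covariate also did not overlap between the groups, so this fit cannot separate it well from genotype.

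**Figure D5:**
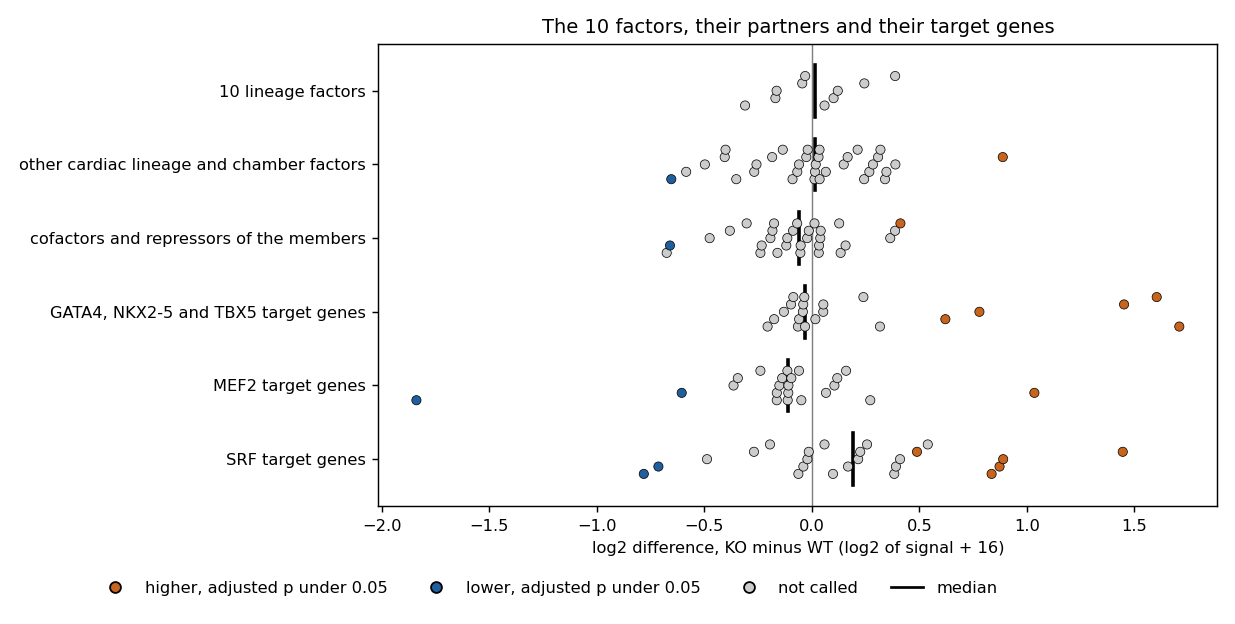
Log2 difference, KO minus WT (horizontal axis), of each tested gene in the set of 10 factors and in 5 lists of partners and target genes; orange genes were called higher, blue ones lower, and black bars are medians. The 10 factors lie between -0.31 and 0.39 with 0 called, while the target lists hold 5, 3 and 7 called genes with differences from -1.84 to 1.71.

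By the rule of smallest root mean square distance over the 6 hearts, the genes whose centred log2 profile lay nearest that of Tbx5 were Tiam1 (0.020), Ogt (0.027), Bcl7c (0.027), Akap13 (0.031) and Tmem106a (0.034). Their log2 differences ran from 0.063 to 0.11. With 1001 genes closer than 0.1, such a flat profile is common and the order says little.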

How the data were processed

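The authors deposited 1 linear signal intensity for each probe set, computed with MAS5 per the submitters' processing notes; the sources used here give no scaling target and no detection calls. Biotin-labelled RNA was hybridised to 1-colour arrays, per the labels. No further scaling was applied. Of 45099 probe sets 62 are controls, and 34945 others have 1 platform-table symbol, 932 several and 9160 none; only the first were named. Log2(signal + 16) was used. Probe sets at or above the 40th percentile of mean log2 (a signal of 8.17) were kept, the brightest standing for its gene. The genotype difference came from lmFit and a trended eBayes (limma 3.58.1, R 4.3.3) at a threshold of 0.05; the scripts were tested on simulated data. Named were the 10 factors, Esrra, the atrial score genes, the list genes past the threshold with up to 4 of smallest p per list, and the 5 genes nearest Tbx5; Nr2f2, Kcnj3, Crebbp, Myocd, Mrtfa, Mrtfb, Zfpm2, Tnnt2, Ryr2, Myh6, Actc1, Ckm, Myl2, Fos and Egr1 were named after their values were seen. The factors, lists and tests were chosen with earlier results of these data known. The lists were the partners and targets described and markers of atrial, ventricular and all cardiomyocytes, fibroblasts, endothelium (0 of 10 called), smooth muscle, leukocytes (1 of 8 higher, 0 with quantile normalization) and adipocytes (5 of 7 higher, of which 1 passed without WT 1 and 2 without KO 2 or with quantile normalization). Beside these marker counts, 1.77% of all genes were called higher. Alternatives were other scalings, pseudocounts, filters, probe set rules, variance models, array weights, a replicate block, an atrial covariate and leaving out each heart.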

Additional observations from a re-analysis of the deposited data

How the results depend on the processing

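None of the 10 lineage factors was called in any of 20 alternative settings, and none of their 30 probe sets in any of the 15 settings run on probe sets; the lowest adjusted p was 0.0586 and 0.0609, both with cyclic loess. Of 200 values of single factors over the settings 187 kept their sign and their side of the threshold and 13 turned sign. Gata6 turned to 0.059 when its probe sets were averaged and to 0.11 with the atrial covariate, Hand2 to 0.00029 with cyclic loess and to 0.033 with array weights, and Nkx2-5 to -0.060 with the atrial covariate. Leaving out each heart in turn gave ranges of -0.10 to 0.016 for Gata6, -0.25 to 0.095 for Hand2, -0.056 to 0.24 for Nkx2-5 and -0.045 to 0.13 for Mef2a. The other 6 factors kept their sign. The count of all genes called, 375, was 67 with no filter, 176 with no intensity trend, 608 with array weights and 76 with the atrial covariate, and 128 to 516 leaving out each heart. The cause was not tested. Esrra was at -2.58 with robust eBayes without passing (adjusted p = 0.306), and at -3.39 to -2.12 leaving out each heart, where it did not pass without WT 1 (0.0677). With the replicate block 392 genes and 0 factors were called; same-numbered hearts had deviations correlated at 0.030, -0.016 and 0.028, so the numbers were not taken to pair the hearts. Without detection calls, dim signals carry no mark of presence, which touches Tbx1 and the dimmest probe sets of Tbx20, Hand2 and Gata6.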
